A study of Mus musculus with 11 samples.

Results

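The genes described here are 10 cytokines and receptors of the interleukin-1 (IL-1) family, taken by symbol from the 55513 genes of a count table of mouse hearts. They are the agonists Il1a, Il1b, Il33 and Il18, the antagonist Il1rn, the binding protein Il18bp, the signalling receptors Il1r1, Il1rap and Il1rl1, and the decoy receptor Il1r2. The 11 hearts came from female C57BL/6J mice aged 8 weeks and were taken 3 days after operation. Myocardial infarction (MI) had been caused in 8 mice by ligating the left anterior descending coronary artery (LAD). After MI, 4 mice were given GI254023X (A10i), a hydroxamate inhibitor of the sheddase ADAM10, at 100 mg/kg, and 4 were given DMSO as solvent. A further 3 mice had a sham operation and DMSO. RNA came from the infarct and its border zone after MI, as the paper describes it, and from healthy heart in sham mice. The operation and the tissue sampled therefore cannot be told apart, and no sham mice with A10i were in the series.

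Cytokines of the IL-1 family act on nearby cells through paired receptors. IL-1 alpha and IL-1 beta bind the receptor encoded by Il1r1, which recruits the accessory chain encoded by Il1rap and signals through MyD88 to NF-kB. The antagonist encoded by Il1rn occupies the same receptor without signalling, and the decoy encoded by Il1r2 binds IL-1 but lacks the signalling domain. IL-33 acts through ST2, the product of Il1rl1, with the same accessory chain. IL-18 has its own receptor pair, and the product of Il18bp captures it. In the infarcted heart, IL-1 signalling is known as an early driver of leukocyte recruitment, and the soluble form of ST2 is known as a marker of cardiac strain.

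The 10 genes lie on 6 chromosomes, given here on GRCm38 (mm10) with the GENCODE gene spans that the count table uses. On chromosome 1, receptor genes lie on the plus strand: Il1r2 at chr1:40074079-40125231, Il1r1 at chr1:40225080-40317257 and Il1rl1 at chr1:40429570-40465415. On chromosome 2, Il1rn lies at chr2:24336853-24351494 on the plus strand, and Il1a at chr2:129299610-129309972 and Il1b at chr2:129364570-129371139 lie on the minus strand. Il18bp lies at chr7:102014885-102018690 on the minus strand. The remaining genes are on the plus strand, Il18 at chr9:50554827-50581840, Il1rap at chr16:26581704-26730117 and Il33 at chr19:29925114-29960718. Reads were counted over the exons of each gene. The isoforms of one gene, among them the membrane-bound and soluble forms of ST2, are therefore counted together. Annotated genes on the opposite strand overlap Il1a, Il1b, Il18, Il18bp, Il1rap and Il1r2, and genes on the same strand overlap Il1r1 and Il1r2. The libraries were strand-specific, but the strand setting of the counting is not given in the sources used here, so reads from such partners may be included.

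The sequences before the start sites of Il1a, Il1rn and Il1r2 are shown because their counts separated all A10i mice from all DMSO mice, and that of Il1b is shown as the agonist that their products compete with or capture. Each is the 250 bases before a start in RefSeq (GRCm38.p6), written 5′ to 3′ on the strand of the gene. Capitals mark matches to a motif on either strand. Of the sequences shown, Il1a holds the PU.1 core GAGGAAG 41 bases and an AP-1 match 12 bases before the start, the first Il1rn start has an AP-1 match 141 bases before it, and the others hold no match.
Il1a, chr2:129309973-129310222: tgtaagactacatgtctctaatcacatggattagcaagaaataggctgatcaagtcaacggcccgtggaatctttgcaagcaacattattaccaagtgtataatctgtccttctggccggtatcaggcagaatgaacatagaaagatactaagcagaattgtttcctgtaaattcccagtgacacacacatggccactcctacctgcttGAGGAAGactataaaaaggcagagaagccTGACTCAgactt
Il1b, chr2:129371140-129371389: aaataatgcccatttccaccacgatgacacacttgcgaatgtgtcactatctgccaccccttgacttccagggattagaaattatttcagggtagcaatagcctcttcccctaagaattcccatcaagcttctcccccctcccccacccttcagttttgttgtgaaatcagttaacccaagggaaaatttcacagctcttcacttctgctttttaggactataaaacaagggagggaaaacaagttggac
Il1rn, first start, chr2:24336610-24336859: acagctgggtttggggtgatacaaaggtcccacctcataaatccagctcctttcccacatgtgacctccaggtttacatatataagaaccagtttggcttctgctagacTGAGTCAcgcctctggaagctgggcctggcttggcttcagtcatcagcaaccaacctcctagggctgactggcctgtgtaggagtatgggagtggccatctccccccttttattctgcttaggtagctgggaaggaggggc
Il1rn, second start, chr2:24345041-24345290: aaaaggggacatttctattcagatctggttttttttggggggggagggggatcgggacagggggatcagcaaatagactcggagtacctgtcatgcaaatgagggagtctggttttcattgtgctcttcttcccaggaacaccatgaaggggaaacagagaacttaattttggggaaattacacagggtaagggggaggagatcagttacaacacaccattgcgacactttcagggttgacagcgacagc
Il1r2, chr1:40085843-40086092: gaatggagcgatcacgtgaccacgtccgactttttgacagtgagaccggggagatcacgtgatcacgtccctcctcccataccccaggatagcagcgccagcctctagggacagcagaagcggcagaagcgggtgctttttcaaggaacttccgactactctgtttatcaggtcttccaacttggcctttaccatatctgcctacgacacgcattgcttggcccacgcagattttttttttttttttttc

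All 10 members had at least 1 of the 32851 RefSeq promoter windows, 15 windows in total, each of 250 bases before and 50 after a start. The RefSeq start of Il1r2 lies inside the GENCODE span of the gene, downstream of its first base. The NF-kB consensus was in 1 of the 15 windows, that of the second start of Il1r1, and in 4.51% of all windows. The C/EBP motif TTGCNNAA was in 4 of the 15 windows (Il33, Il18bp, Il1r1 and Il1rl1) and in 10.8% of all windows. The PU.1 core was in 2 of 15 windows (Il1a and Il33) and 13.6% of all, the AP-1 motif TGANTCA in 2 of 15 (Il1a and Il1rn) and 7.81%, and the GATA motif AGATAA in 2 of 15, both of Il1rl1, and 11.2%. These matches describe letters in short windows and do not show binding.

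Total counts per library lay between 21702659 and 29511782. Mitochondrial genes held 21.5 to 22.2% of counts in sham and 14.8 to 18.6% after MI. Summed cardiomyocyte markers were between 70873 and 72103 CPM in sham, 33970 and 49222 in DMSO and 40479 and 55009 in A10i mice. Here CPM are counts scaled to the library total after its adjustment by TMM. Heart muscle RNA was thus present in each library. Values below are normalized counts, that is, raw counts scaled by TMM to the mean library size of the 11 hearts. Fold changes and two-sided p-values are from edgeR's quasi-likelihood test on the 2 groups compared, adjusted over all genes tested, with a threshold of 0.01. SE is the standard error and n the number of mice. In bulk tissue, fewer cells of a type and less RNA per cell cannot be told apart.

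Between DMSO and sham, 6 of the 10 members rose (Il1a, Il1b, Il33, Il1rn, Il1r1 and Il1r2), and 0 fell. Over all 17119 genes tested, 12.9% were called higher and 9.6% lower. Between A10i and sham, 6 of the 9 members tested rose (Il1b, Il33, Il18, Il1rn, Il1r1 and Il1r2) and 0 fell, beside 13.8% higher and 9.09% lower over 17004 genes. These counts include Il1a, Il1b, Il1rn and Il1r2, whose sham libraries held only 1, 11, 4 and 3 raw counts in all. These 4 genes passed the filter on low counts only through the infarcted mice and had to differ. Among the other 6 members, 2 rose in DMSO (Il33 and Il1r1) and 3 rose in A10i mice (Il33, Il18 and Il1r1). The calls in A10i mice changed when single mice were left out. Over all genes, the number called against sham also fell without a sham mouse, to its lowest of 1620 without S1. Il1b and Il18 lost theirs without S1, S2 or S3, Il33 without S1, S2 or A116, and Il1r2 without S1 or S3, which left 2, 3 and 3 members called without S1, S2 and S3.

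Between A10i and DMSO, edgeR called 0 of 9 members and 0 of 16793 genes (0%) at an adjusted p of 0.01, and the smallest adjusted p of any gene was 0.0480. At an unadjusted p under 0.05, 4 of the 9 members were lower with A10i (Il1b, Il1rn, Il1r1 and Il1r2), beside 6.73% of all genes, and 0 were higher, beside 7.1%. DESeq2 called 2 members lower, Il1b and Il1r2, beside 0.714% of its genes. The normalized counts of all A10i mice lay below those of all DMSO mice for 3 of the 10 members, Il1a, Il1rn and Il1r2. Of these, Il1a was below the filter on low counts, which left 2 of the 9 members tested, Il1rn and Il1r2. Over all genes tested, 4.12% had such a separation with A10i lower and 4.02% with A10i higher. The median log2 fold change was -0.23 over the 9 members and 0.0034 over all genes. The 3 comparisons share mice, so they are not independent of each other.

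**Figure D1:**
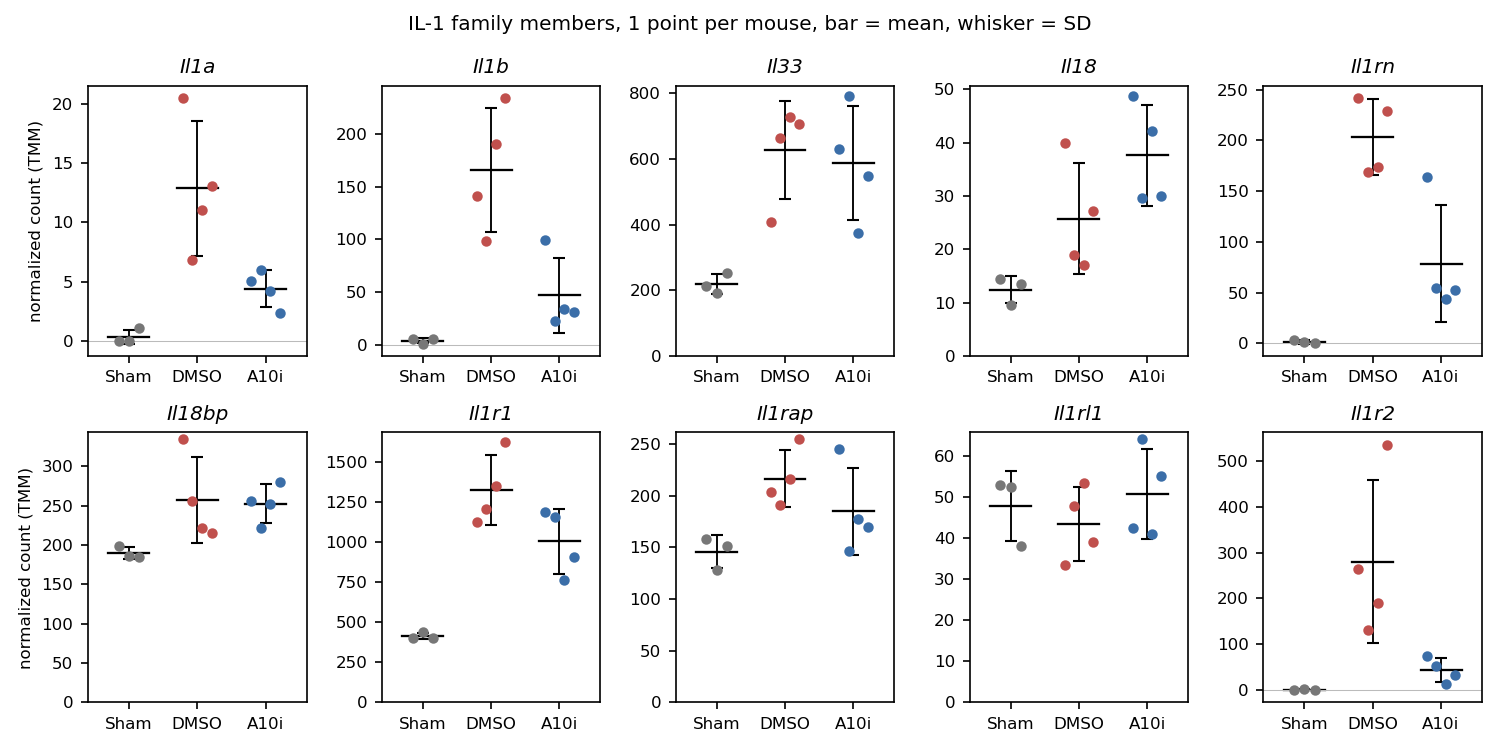
Normalized counts (y axis, linear, TMM) of the 10 genes in the 3 Sham, 4 DMSO and 4 A10i mice, with 1 point per mouse, the bar at the group mean and the whisker of 1 SD. For Il1a, Il1rn and Il1r2 each A10i mouse lies below each DMSO mouse, whereas the 3 groups overlap for Il1rl1.

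Il1b encodes IL-1 beta, the agonist that is made as a precursor and cleaved by caspase-1. Its normalized counts were 5.54, 0.956 and 5.15 in the sham mice (S1, S2 and S3). In DMSO mice they were 141 in A105, 98.5 in A127, 190.5 in A128 and 234 in A129. In A10i mice they were 99.3 in A116, 22.7 in A117, 33.8 in A119 and 31.0 in A120. Each infarcted mouse exceeded each sham mouse, and the A10i and DMSO mice overlapped only because A116 lay just above A127. The ratio to sham was taken from the raw counts summed over each group, scaled by the summed library totals after TMM. It was 43.7 in DMSO (95% interval for counting error alone 24.3 to 88.0) and 12.5 in A10i mice (6.83 to 25.5). The log2 fold change was 5.41 against sham in DMSO (SE 0.49, adjusted p = 0.000132) and 3.59 in A10i mice (SE 0.74, adjusted p = 0.00535), the latter being 2.91 without A116 (edgeR adjusted p = 0.000352). In A10i relative to DMSO mice it was -1.82 (SE 0.45, 95% interval -2.83 to -0.81), with an adjusted p of 0.140 in edgeR and 0.00243 in DESeq2. Leaving out 1 mouse gave values from -2.50 without A116 (edgeR adjusted p = 0.0482) to -1.59 without A117.

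Il1a encodes IL-1 alpha, which is active without cleavage and is released from damaged cells. It was the least abundant member, at 0, 0 and 1.03 normalized counts in the sham mice. It was at 20.5, 6.86, 11.1 and 13.05 in the DMSO mice A105, A127, A128 and A129. It was at 5.07, 5.93, 4.22 and 2.30 in the A10i mice A116, A117, A119 and A120. The A10i mice thus lay between sham and DMSO without overlap, on raw counts of 2 to 6 in A10i and 8 to 19 in DMSO mice. The ratio to sham was 36.3 in DMSO (counting interval 6.23 to 1459, with 1 count in sham) and 13.01 in A10i mice (2.04 to 544). Il1a rose in DMSO against sham (log2 fold change 4.78, edgeR adjusted p = 0.00225), a call that was lost without any 1 of the sham mice (log2 fold change 4.28 without S2 to 6.72 without S3, edgeR adjusted p = 0.0101 to 0.0144). It was below the filter in both comparisons with A10i mice. Without the filter, its log2 fold change between A10i and DMSO was -1.49 (SE 0.48, edgeR adjusted p = 0.222).

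Il1rn encodes the IL-1 receptor antagonist. Its normalized counts were 3.32, 0.956 and 0 in the sham mice. They were 242 in A105, 169 in A127, 173 in A128 and 229 in A129 among the DMSO mice. They were 164 in A116, 54.4 in A117, 43.3 in A119 and 52.9 in A120 among the A10i mice. The groups did not overlap, but A116 lay close to the lowest DMSO mouse and far above the other A10i mice. The ratio to sham was 146 in DMSO (counting interval 56.8 to 537) and 58.2 in A10i mice (22.5 to 215), on 4 counts in sham. Il1rn rose in both groups against sham (edgeR adjusted p = 1.88e-05 in DMSO and 0.00145 in A10i mice). With so few sham counts the fitted log2 fold change depended on single mice. It was 7.08 in DMSO, 8.36 without S1 and 6.53 without S3, and 5.72 in A10i mice, 6.99 without S1 and 5.07 without A116. In A10i relative to DMSO mice the log2 fold change was -1.36 (SE 0.39, 95% interval -2.23 to -0.49), with an adjusted p of 0.179 in edgeR and 0.0169 in DESeq2. Leaving out 1 mouse gave values from -2.01 without A116 (edgeR adjusted p = 0.0252) to -1.16 without A119.

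Il1r2 encodes the decoy receptor, which in blood is known as a product of neutrophils among other cells. In the sham mice its normalized counts were 1.11, 1.91 and 0. In the DMSO mice they were 264 in A105, 132 in A127, 190.5 in A128 and 535 in A129. In the A10i mice they were 74.0 in A116, 53.4 in A117, 13.7 in A119 and 32.2 in A120. The groups were fully separated, and A129 stood far above the other DMSO mice. The ratio to sham was 264 in DMSO (counting interval 90.0 to 1280) and 42.9 in A10i mice (14.4 to 209.9), on 3 counts in sham. Il1r2 rose in both groups (log2 fold change 7.93, edgeR adjusted p = 0.000336 in DMSO, and 5.24, edgeR adjusted p = 0.00185 in A10i mice). Without S2 the values were 8.73 and 6.04, and without S3 they were 7.39 and 4.71. Its log2 fold change between A10i and DMSO was the most negative of the members tested, at -2.68 (SE 0.53, 95% interval -3.88 to -1.48), with an adjusted p of 0.0931 in edgeR and 0.00227 in DESeq2. Of all genes tested, 0.0298% had a more negative value. Leaving out 1 mouse gave values from -3.06 without A116 to -2.16 without A129.

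Il1r1, the receptor that both IL-1 agonists signal through, was at 400, 438 and 404 normalized counts in the sham mice. It was at 1121, 1207, 1349 and 1619.9 in the DMSO mice A105, A127, A128 and A129. It was at 1188, 1155, 764 and 907 in the A10i mice A116, A117, A119 and A120. Each infarcted mouse was above each sham mouse, and the infarcted groups overlapped. The log2 fold change against sham was 1.67 in DMSO (SE 0.13, edgeR adjusted p = 5.65e-05) and 1.28 in A10i mice (SE 0.15, edgeR adjusted p = 0.000484). The A10i mice differed from the DMSO mice by -0.40 (SE 0.16, 95% interval -0.75 to -0.05, edgeR adjusted p = 0.302). Il1rap, the accessory chain, changed less. It was at 128.1 to 158 in sham, 191 to 255 in DMSO and 146 to 245 in A10i mice, where A116 was the highest and the other 3 lay below each DMSO mouse. Its log2 fold changes of 0.57 in DMSO (edgeR adjusted p = 0.0127) and 0.35 in A10i mice (edgeR adjusted p = 0.150) did not pass, although DESeq2 called the first (adjusted p = 0.00432). Its difference of A10i from DMSO was -0.23 (95% interval -0.60 to 0.15).

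**Figure D2:**
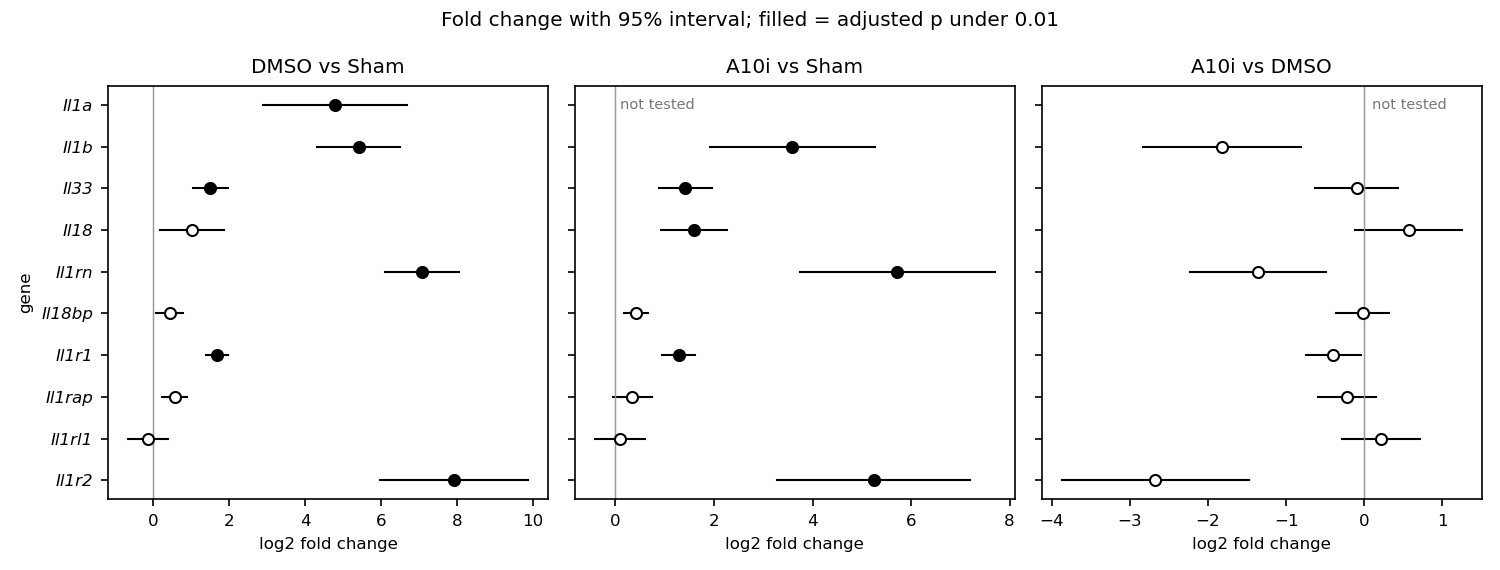
Log2 fold changes (x axis) of the 10 genes (y axis) in DMSO vs Sham, A10i vs Sham and A10i vs DMSO, with 95% intervals worked out from the edgeR test and filled points at an adjusted p under 0.01. No point is filled between A10i and DMSO, where Il1r2 (-2.68), Il1b (-1.82) and Il1rn (-1.36) lie farthest below 0, and Il1a was not tested in the comparisons with A10i.

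Il33 encodes an alarmin stored in the nuclei of fibroblasts and endothelial cells. It was at 213, 193 and 254 normalized counts in the sham mice. It was at 408, 664, 728 and 708 in the DMSO mice A105, A127, A128 and A129, and at 632, 792, 375 and 548 in the A10i mice A116, A117, A119 and A120. Both infarcted groups were above sham, and they overlapped, the DMSO range lying inside that of the A10i mice. The log2 fold change against sham was 1.51 in DMSO (SE 0.21, edgeR adjusted p = 0.000763) and 1.42 in A10i mice (SE 0.24, edgeR adjusted p = 0.00215). The A10i and DMSO mice differed by -0.09 (95% interval -0.62 to 0.44). The summed fibroblast markers were 1110 to 1184 CPM in sham, 1802 to 5860 in DMSO and 4550 to 8067 in A10i mice. A105 had the lowest sum and the lowest Il33 count of the DMSO mice, whereas A117 had the lowest sum (4550) and the highest Il33 count of the A10i mice. The part of fibroblasts in the result was not tested.

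Il1rl1, the ST2 receptor for IL-33, was at 53.1, 52.6 and 38.1 normalized counts in the sham mice. It was at 33.4 to 53.6 in DMSO and 41.2 to 64.3 in A10i mice, and the groups overlapped in each comparison. The log2 fold change was -0.14 in DMSO (95% interval -0.66 to 0.39) and 0.09 in A10i mice against sham (95% interval -0.42 to 0.59). Both directions turned under at least 1 alternative. The A10i and DMSO mice differed by 0.22 (95% interval -0.28 to 0.72). Il33 therefore rose against sham while its receptor gene did not pass the test. Mast cells, which carry ST2, had summed markers of 8.46 to 10.9 CPM in sham, 8.71 to 19.6 in DMSO and 8.74 to 14.3 in A10i mice. This sum was mostly Kit, which other cells carry too, at 126.8 to 180 normalized counts in sham, 168 to 468 in DMSO and 122 to 288 in A10i mice. The mast cell proteases Cpa3, Tpsb2 and Mcpt4 lay below sham without overlap in DMSO mice (log2 fold changes from -1.06 to -0.65, edgeR adjusted p from 0.0325 to 0.110), and overlapped with sham in A10i mice. Tpsb2 had a log2 fold change of 0.93 in A10i relative to DMSO mice without overlap (edgeR adjusted p = 0.247). The part of mast cells in the result was not tested.

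Il18 encodes an agonist that, like IL-1 beta, is activated by caspase-1. Its normalized counts were 14.4, 9.56 and 13.4 in sham mice. They were 39.9, 18.9, 17.0 and 27.1 in the DMSO mice A105, A127, A128 and A129, and 48.7, 29.7, 42.2 and 29.9 in the A10i mice A116, A117, A119 and A120. Each infarcted mouse was above sham, and A105 was the one DMSO mouse within the A10i range. Il18 was called against sham in A10i (log2 fold change 1.60, SE 0.30, edgeR adjusted p = 0.00260) and not in DMSO mice (1.03, SE 0.38, edgeR adjusted p = 0.0527). The difference between these groups, tested directly, was 0.57 (95% interval -0.11 to 1.25, edgeR adjusted p = 0.454). Il18bp, which neutralises IL-18, was at 185 to 198 in sham, 216 to 335 in DMSO and 222 to 281 in A10i mice. Its log2 fold changes against sham were 0.43 in DMSO (edgeR adjusted p = 0.0554) and 0.42 in A10i mice (edgeR adjusted p = 0.0130), and it was -0.02 between A10i and DMSO (95% interval -0.36 to 0.31).

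Levels were compared between genes as normalized counts per kilobase of the longest coding transcript. In sham hearts, Il33 was the highest member at 86.4 ± 12.1 (SD, n = 3), followed by Il18bp at 73.1 ± 2.85 and Il1r1 at 71.1 ± 3.60, and these neighbours overlapped. Il1b, Il1r2, Il1rn and Il1a were the lowest, each with a mean under 3 per kilobase. In DMSO hearts, Il33 at 246 ± 58.4 (SD, n = 4), Il1r1 at 228 ± 37.5 and Il1r2 at 198 ± 126 led with overlapping ranges, and Il1b stood at 122 ± 43.3. In A10i hearts, Il33 at 231 ± 68.3 (SD, n = 4) and Il1r1 at 172 ± 34.9 led and overlapped. There, Il1b at 34.5 ± 26.1, Il1rn at 31.8 ± 23.1 and Il1r2 at 30.5 ± 18.4 stood below Il18 at 42.5 ± 10.6, but all 4 ranges overlapped. With the union of all exons as the length, the level of Il1rn in DMSO hearts was 36.7 in place of 82.1, and that of Il1rap was 19.1 in place of 47.9, so ranks that involve these genes depend on the length used.

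Within each mouse, the ratio of the decoy Il1r2 to the receptor Il1r1, per kilobase, was 0 to 0.0179 in sham. It was 0.966 in A105, 0.448 in A127, 0.579 in A128 and 1.35 in A129 among DMSO mice. It was 0.255 in A116, 0.190 in A117, 0.0736 in A119 and 0.146 in A120 among A10i mice. The decoy transcript was thus more abundant relative to the receptor in each DMSO mouse than in any A10i mouse. In contrast, the ratio of the antagonist Il1rn to the agonist Il1b overlapped, at 0.499 to 0.939 in DMSO and 0.702 to 1.31 in A10i mice. In sham hearts this ratio rests on at most 5 counts of either gene. The ratio of Il1rl1 to Il33 was 0.0722 to 0.131 in sham, 0.0265 to 0.0394 in DMSO and 0.0323 to 0.0527 in A10i mice. The ratio of Il18bp to Il18 was 4.69 to 6.65 in sham, 2.71 to 4.63 in DMSO and 1.80 to 3.20 in A10i mice. These ratios were described without a test.

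**Figure D3:**
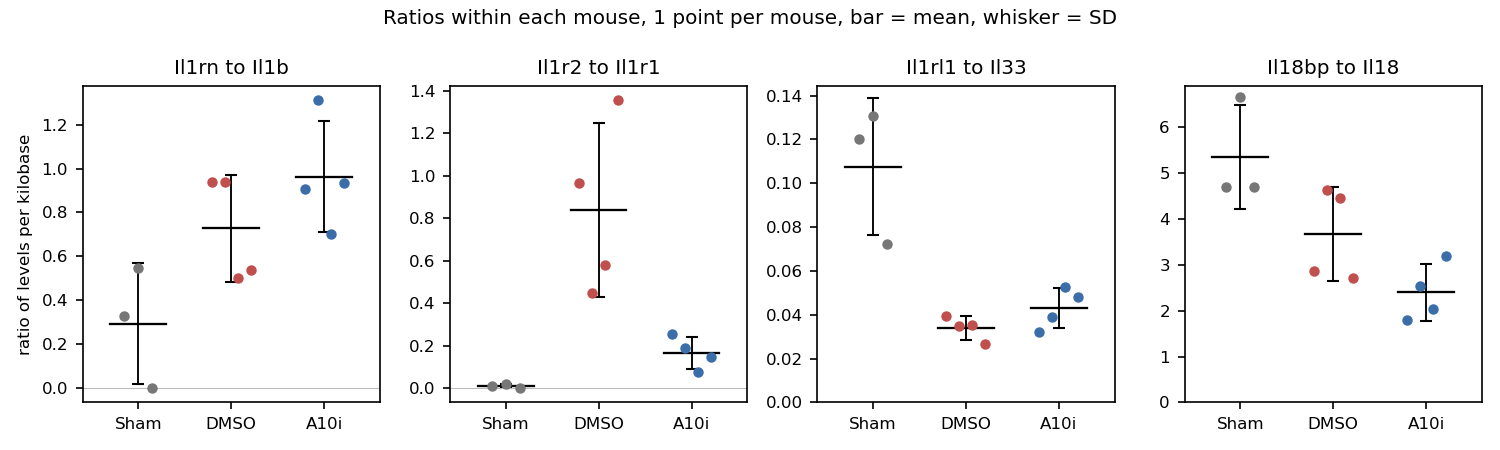
Ratios within each mouse of the levels per kilobase (y axis) of 4 gene pairs in the Sham, DMSO and A10i groups, with 1 point per mouse, the bar at the group mean and the whisker of 1 SD. The ratio of Il1r2 to Il1r1 is 0.448 or more in the 4 DMSO mice and 0.255 or less in the 4 A10i mice, and the ratios of Il1rl1 to Il33 and of Il18bp to Il18 are highest in sham mice.

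Markers of neutrophils moved with several members. The summed level of 12 neutrophil marker genes was 1.94 to 3.29 CPM in sham, with Ly6g, Trem1 and Stfa2l1 at 0 in all 3 mice. It was 95.8 to 184 CPM in DMSO, highest in A129, and 19.6 to 72.3 CPM in A10i mice, highest in A116. Against sham, edgeR called 11 of 11 neutrophil markers tested higher in DMSO and 9 of 10 in A10i mice, beside 12.9% and 13.8% of all genes. Of these markers, 9 in DMSO and 8 in A10i mice passed the filter only through the infarcted mice and had to differ, which left 2 of 2 (Csf3r and Mmp9) and 1 of 2. Between A10i and DMSO, edgeR called 0 of 11 and DESeq2 called 6 lower (S100a8, S100a9, Csf3r, Cxcr2, Cd177 and Stfa2l1), beside 0.714% of its genes. At an unadjusted p under 0.05 in edgeR, 10 were lower, beside 6.73% of all genes. In 8 the A10i mice lay lower without overlap, beside 4.12% of all genes. A129 and A116, highest for neutrophil markers, had the highest Il1b, Il1r2 and Il1r1 counts of their groups, and A116 but not A129 the highest Il1rn count. The same mice were also highest of their groups for summed macrophage (1007 and 1461 CPM), monocyte (1309 and 1446), fibroblast (5860 and 8067) and mast cell markers (19.6 and 14.3), and lowest for cardiomyocyte markers (33970 and 40479), so their standing was not particular to neutrophil markers. The 10 macrophage markers summed to 369 to 402 CPM in sham, 594 to 1007 in DMSO and 781 to 1461 in A10i mice, and 10 of 10 had a higher estimate with A10i than with DMSO, of which 0 were called by edgeR or DESeq2. The part of these cell types in the results was not tested.

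**Figure D4:**
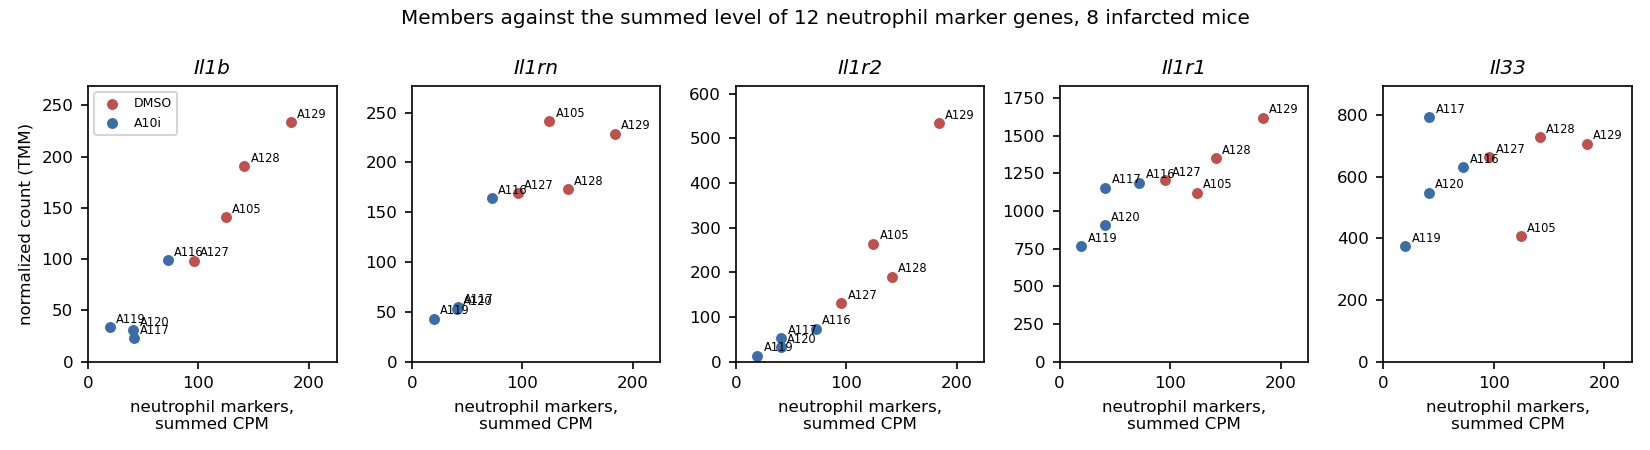
Normalized counts (y axis, linear, TMM) of Il1b, Il1rn, Il1r2, Il1r1 and Il33 against the summed CPM of 12 neutrophil markers (x axis) in the 4 DMSO and 4 A10i mice, with 1 labelled point per mouse. The DMSO mice lie at 95.8 CPM or more and the A10i mice at 72.3 CPM or less, and the Il33 counts of the 2 groups overlap.

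Of 11 other ligands and receptors of the family, 5 could be tested between DMSO and sham, of which 3 rose and 1 fell, and 3 of 4 tested rose in A10i mice. Over all genes, 12.9% were called higher and 9.6% lower in DMSO, and 13.8% were called higher in A10i mice. Il18r1 and Il18rap, the IL-18 receptor chains, rose in DMSO (log2 fold changes 2.92 and 3.89, edgeR adjusted p = 9.51e-05 and 0.00036) and in A10i mice (3.39 and 2.45, edgeR adjusted p = 0.0001 and 0.000965). Between A10i and DMSO, their estimates were 0.46 for Il18r1 (edgeR adjusted p = 0.381) and -1.44 for Il18rap (edgeR adjusted p = 0.132), and the 2 groups did not overlap for Il18rap, which DESeq2 called. Il18rap in both comparisons and Il36g in DMSO passed the filter only through the infarcted mice and had to differ. Il36g, an agonist of the IL-36 branch, had 0 counts in sham, 24.7 to 67.9 normalized counts in DMSO and 3.17 to 19.3 in A10i mice. Its log2 fold change between A10i and DMSO was -2.02 (adjusted p = 0.120 in edgeR and 0.00480 in DESeq2). Sigirr, an inhibitory receptor, fell in DMSO against sham (log2 fold change -0.75, edgeR adjusted p = 0.00662) and had -0.29 in A10i mice (edgeR adjusted p = 0.134). Il1rl2, the IL-36 receptor, rose in A10i mice (0.94, edgeR adjusted p = 0.00447) and had 0.87 in DMSO mice (edgeR adjusted p = 0.0147).

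Among 15 genes for processing and release of IL-1 cytokines, 4 of 12 tested rose in DMSO (Casp4, Mefv, Nlrp3 and Casp8) and 4 of 12 rose in A10i mice (Casp4, Nlrc4, Casp8 and Mefv), whereas 0 fell, beside 12.9% and 13.8% of all genes called higher. Mefv passed the filter only through the infarcted mice and had to differ, and 3 of the other 11 rose in each comparison. Casp4, the inflammatory caspase of the non-canonical pathway, had log2 fold changes of 1.18 in DMSO (edgeR adjusted p = 0.000303) and 1.12 in A10i mice (edgeR adjusted p = 0.0021). Nlrp3, the inflammasome sensor, had 2.30 in DMSO (edgeR adjusted p = 0.0013) and 1.24 in A10i mice (edgeR adjusted p = 0.103), with a direct difference of -1.07 (edgeR adjusted p = 0.356). Of 18 genes of signal transduction from IL-1 receptors, 3 rose (Myd88, Irak4 and Rela) and 2 fell (Ikbkg and Irak1) in DMSO. In A10i mice 2 rose (Myd88 and Irak4) and 4 fell (Irak1, Map3k7, Tab3 and Ikbkg). Over all genes, 12.9% were called higher and 9.6% lower in DMSO, and 13.8% and 9.09% in A10i mice, so both counts in DMSO and the count that rose in A10i mice lay near those shares. Myd88, the adaptor of these receptors, had log2 fold changes of 1.16 in DMSO (edgeR adjusted p = 0.00014) and 0.82 in A10i mice (edgeR adjusted p = 0.000682), and -0.35 between A10i and DMSO (edgeR adjusted p = 0.190).

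Of 20 NF-kB target genes known to be induced by IL-1, 15 of 18 tested rose against sham in DMSO and 15 of 18 in A10i mice, and 0 fell, beside 12.9% and 13.8% of all genes called higher. In both comparisons Il6, Cxcl2, Cxcl5 and Saa3 passed the filter only through the infarcted mice and had to differ, and 11 of the other 14 rose. The smallest p-values in DMSO were those of the chemokine Ccl2 (log2 fold change 5.14), the adhesion molecule Icam1 (1.27), the neutrophil chemokine Cxcl1 (3.76) and the NF-kB regulator Nfkbiz (1.65), with edgeR adjusted p from 1.07e-05 to 9.51e-05. Between A10i and DMSO, edgeR called 0 of 18 and DESeq2 called 3 lower (Cxcl1, Cxcl2 and Sele), beside 0.714% of its genes. At an unadjusted p under 0.05 in edgeR, 10 were lower, beside 6.73% of all genes. A lower estimate was found for 17, with a median log2 fold change of -0.45, beside 0.0034 over all genes. The estimate was -1.15 for Cxcl1 (SE 0.24, adjusted p = 0.0931 in edgeR and 0.00109 in DESeq2) and -1.03 for Ccl2 (SE 0.36, edgeR adjusted p = 0.253). Cxcl1 was at 12.4 to 14.4 normalized counts in sham, 124 to 265 in DMSO and 71.8 to 98.3 in A10i mice, without overlap. Neutrophils are known to express some genes of this list, and the neutrophil markers given above also had lower estimates with A10i. The part of neutrophils in these values was not tested.

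Of 12 type 2 genes downstream of IL-33, 5 were tested against sham, of which 2 rose and 1 fell in each infarcted group. Over all genes, 12.9% were called higher and 9.6% lower in DMSO, and 13.8% and 9.09% in A10i mice. Arg1 and Chil3, both markers of alternatively activated macrophages, were those that rose, but they passed the filter only through the infarcted mice and had to differ, and 0 of the other 3 rose. Retnla, another such marker, fell (log2 fold changes -3.08 in DMSO and -2.82 in A10i mice, edgeR adjusted p = 0.00014 and 0.000138). Arg1 was at 0 to 2.06 normalized counts in sham, 969 to 4289 in DMSO and 151 to 1388 in A10i mice, and Chil3 at 0 to 1.11, 559 to 2514 and 109 to 501. The cytokine genes Il4, Il5, Il13 and Il9 were below the filter. Between A10i and DMSO, edgeR called 0 of 5 tested, and DESeq2 called 1 lower, Ccl24, beside 0.714% of its genes. Its log2 fold change was -2.20 (adjusted p = 0.174 in edgeR and 0.00987 in DESeq2), and the groups overlapped. Of 8 genes downstream of IL-18 through interferon gamma, 1 of 5 tested rose against sham in each infarcted group. Over all genes, 12.9% were called higher in DMSO and 13.8% in A10i mice. The gene that rose was the chemokine Cxcl10, with log2 fold changes of 2.44 in DMSO (edgeR adjusted p = 0.000866) and 3.37 in A10i mice (edgeR adjusted p = 0.00271). In DMSO mice, 4 of the 5 had a lower estimate than in sham, and in A10i mice 4 of the 5 had a higher one. Both counts rest on the same sham mice. Between A10i and DMSO, 0 of the 5 were called by edgeR or DESeq2. All 5 had a higher estimate with A10i, but the groups overlapped for each, and the smallest edgeR adjusted p was 0.341. Against sham, the chemokine Cxcl9 had -0.92 in DMSO without overlap (adjusted p = 0.0252 in edgeR and 0.00791 in DESeq2, which called it lower). It had -0.59 in A10i mice (edgeR adjusted p = 0.261). Ifng itself was at 0 to 1.11 normalized counts in each mouse, and the 8 lymphocyte markers summed to 0.665 to 3.25 CPM over the 11 mice.

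**Figure D5:**
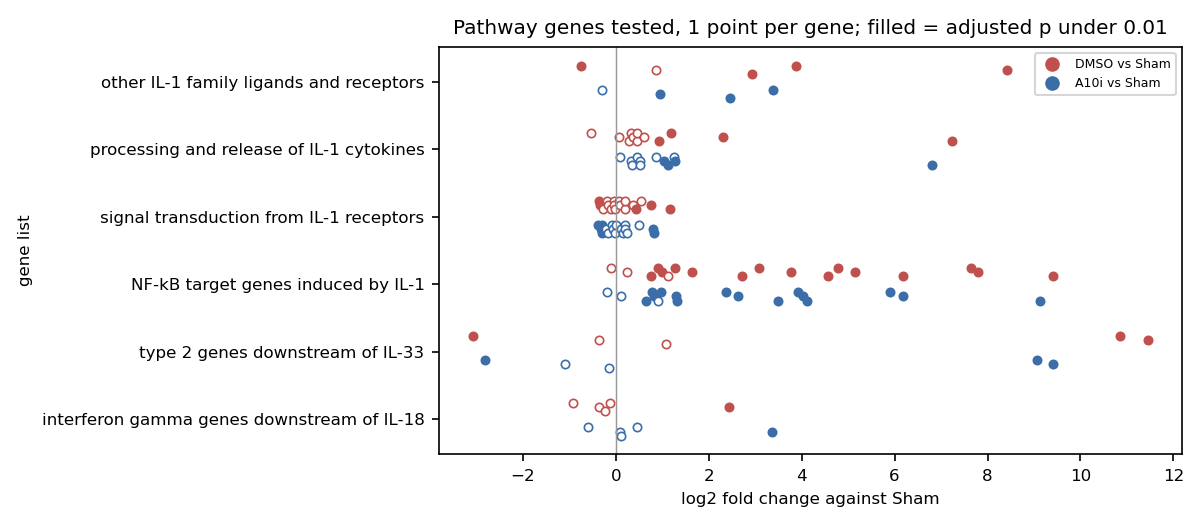
Log2 fold changes against Sham (x axis) of the tested genes of 6 lists (y axis), with 1 point per gene, in DMSO (upper row of each list) and A10i mice (lower row), filled at an adjusted p under 0.01. In the NF-kB target list 15 of 18 points are filled in each row, all to the right of 0.

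For each member, the most similar genes were taken by Pearson correlation of log2 CPM over the 8 infarcted mice among 14789 genes with a mean of at least 1 CPM. The 8 points share the split into DMSO and A10i mice and the marker differences given above, so the values are descriptions without a test. For Il1r2 they were Snap29 (r = 0.993), Cxcr2 (0.991), a chemokine receptor in the neutrophil marker list, and Med15 (0.991). For Il1b they were Trim30b (r = 0.990), Erf (0.986) and Tnfaip6 (0.977), for Il1rn they were Baalc (0.995), Rpl10 (0.992) and Ric8a (0.987), and for Il1a they were Pus7 (0.991), Mphosph10 (0.987) and Pip5k1a (0.986). For Il1r1 they were Kdm1a (r = 0.985), Cdc42bpb (0.984) and Xrn2 (0.980), and for Il1rap they included Asns (0.981) and Fancm (0.974). For Il18 they were Irf7 (r = 0.966), Oasl2 (0.966) and Phf11b (0.963), of which Irf7 and Oasl2 are interferon-induced genes. For Il33 they were Reep2 (r = 0.954), Gm2981 (0.944) and Ap3m1 (0.932), for Il18bp they were Emc6 (0.973), Dnlz (0.948) and Ensa (0.941), and for Il1rl1 they were Kcnj2 (0.969), Atp10d (0.966) and Igfbp5 (0.966). The number of genes with r above 0.9 was 246 for Il1r2, 166 for Il1b, 192 for Il1rn and 281 for Il1a, and 11 to 89 for the other 6 members.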

How the data were processed

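The deposited table holds raw counts per Ensembl gene for 11 libraries, whole numbers without normalization; the authors aligned read pairs to mm10 with GSNAP and counted uniquely aligned reads with featureCounts (version 2.0.1), per the labels and the study's methods. Each library is 1 mouse with its own ID. Totals of 21702659 to 29511782 counts set the precision, and genes with few counts, such as Il1a, are the least certain. Counting intervals and ratios cover counting error only. Chi-square per degree of freedom between replicates was 4.04 or more, so no 2 libraries agreed within sampling noise.

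Analyses used R 4.3.3 with edgeR 4.0.16 (filterByExpr, TMM, robust quasi-likelihood F-test, two-sided, Benjamini-Hochberg over all genes tested, threshold 0.01) on the libraries of the 2 groups compared. On simulated counts with known changes of larger and smaller size, the edgeR script called most of the larger ones. Each known change that it called had the right sign. No share was required for the smaller ones. DESeq2 1.42.0, limma-voom 3.58.1, other normalizations, filters and thresholds, a joint fit and the omission of each library were the alternatives. Counts of members lower at an unadjusted p, of members that did not overlap under other settings, and the unfiltered fit of Il1a were added after seeing the data.

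The 10 members and the gene lists were chosen with earlier results of these data known. Genes were named by rule: each member, up to 4 genes per direction past the threshold in each pathway list, and the 3 genes most correlated with each member, of which 1 is not reported here. Symbols and lengths came from GENCODE M21 and promoter windows from RefSeq (GRCm38.p6). Figures were drawn with matplotlib. The authors' DESeq2 comparisons, protein data and human samples were not used here.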

Additional observations from a re-analysis of the deposited data

Results flagged for a closer look

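In 20 groups of 4 mice tested, 2 had 1 mouse set apart from the other 3, both times A116 of the A10i group. Its normalized count of Il1b was 99.3, beside 33.8 in the next A10i mouse, a gap of 0.856 of the whole range. Its normalized count of Il1rn was 164, beside 54.4 in the next, a gap of 0.908 of the range. Both gaps exceed the critical value of Dixon's test at 95%, and chance flags about 1 in 20 groups. A116 also had the highest summed markers of its group for neutrophils (72.3 CPM), macrophages (1461), monocytes (1446), fibroblasts (8067), mast cells (14.3) and lymphocytes (3.25), and the lowest for cardiomyocytes (40479). The part of these cells was not tested.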

How the results depend on the processing

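No paired analysis was possible because the mice of the groups share no replicate numbers. The cause of each change below was not tested unless it follows from the setting. Members higher in DMSO against sham fell from 6 to 2, and in A10i against sham from 6 to 3, when 10 counts were required in every library, since Il1a, Il1b, Il1rn and Il1r2 then were not tested. With no filter, 3 members were higher in A10i against sham. Leaving out 1 mouse gave 5 to 6 members higher in DMSO and 2 to 7 in A10i mice, with 2, 3 and 3 without the sham mice S1, S2 and S3. Genes called then ranged from 1522 to 4051 in DMSO (3857 with all mice; 1542, 1522 and 1540 without S1, S2 and S3) and from 1620 to 4365 in A10i mice (3885 with all mice; 1620, 1714 and 1664). A threshold of 0.05 gave 6832 and 6672 genes. Between A10i and DMSO, where edgeR called 0 genes, DESeq2 called 231 genes and 2 members lower, edgeR without a filter 43 genes, the joint fit 11, a threshold of 0.05 12 (no member among them), and leaving out 1 mouse 0 to 1. Members lower at an unadjusted p under 0.05 ranged from 3 to 6 when 1 mouse was left out. Members whose groups did not overlap were 3, and 3 to 5 when 1 mouse was left out, with 5 without A105 (Il1r1 and Il18 added) or A116 (Il1b and Il1rap added). With library size alone there were 2, Il1rn having dropped out. That scaling moved the median of all genes by 0.21 in DMSO and 0.19 in A10i against sham.

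The direction turned for Il1rl1 in DMSO against sham with library size alone (log2 fold change 0.073), and in A10i against sham without S3 (-0.056) or A117 (-0.048), where leaving out 1 mouse gave -0.056 to 0.18. Between A10i and DMSO it turned for Il18bp without A105 (0.13) or A117 (0.036), in a range of -0.097 to 0.13, and for Il33 without A119 (0.071), in a range of -0.27 to 0.071. None of these had passed the test. The directions of Il1b, Il1rn, Il1r1 and Il1r2 between A10i and DMSO held in all 16 alternatives.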
